A study of Mus musculus with 6 samples.

Results

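The 10 genes described here encode the NudC chaperone family (*Nudc*, *Nudcd1*, *Nudcd2* and *Nudcd3*) and subunits of the cytoplasmic dynein motor (*Dynll1*, *Dynll2*, *Dync1h1*, *Dync1i2*, *Dync1li1* and *Dync1li2*). All 10 were found by symbol among the 11234 genes measured in MC3T3-E1 cells, a preosteoblast line derived from C57BL/6 mouse skull bone and sampled here at passage 4. The family was picked because *Nudcd3* was higher and *Dynll2* lower in cells given cyanidin-3-O-glucoside (C3G), a plant pigment of the anthocyanin class. The difference between the groups therefore chose the genes, and for all 10 it is given as a description. Counts of these genes past a threshold restate that choice and test nothing. C3G cells (3 libraries) were kept for 24 h in complete medium with 100 μmol/L C3G, and control cells (3 libraries) in complete medium with vehicle, which the sources used here do not name. Both groups had first been held in medium without serum to synchronize them, and the labels give no genetic change in either group. One cell line was examined, and the labels do not say whether the 3 libraries of a group came from separate cultures, so p-values measure only the spread between these libraries, which may be technical.

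Cytoplasmic dynein is the motor that carries vesicles, organelles, RNA and centrosomal proteins along microtubules toward their minus ends, which lie near the nucleus in most cells. Its heavy chain holds the ATPase ring and the microtubule-binding stalk, the intermediate and light intermediate chains tie the motor to its regulators and cargo adaptors, and small light chains of the LC8, Tctex and roadblock types bind the intermediate chain. NudC proteins share a fold with the Hsp90 cochaperone p23 and act with Hsp90 to keep dynein subunits and the dynein regulator Lis1 folded and stable. In osteoblasts, microtubule transport serves the secretory route by which collagen leaves the cell.

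*Dynll1* and *Dynll2* encode LC8 light chains that are nearly the same protein, so their sequences are shown to see how far reads of both genes can be told apart. The coding sequence of *Dynll1* lies on the minus strand of chromosome 5 of GRCm38 (115298699 to 115300644), and that of *Dynll2* on the minus strand of chromosome 11 (87981436 to 87984003). Each spans 2 coding exons and 267 bases without the stop codon. They are shown 5′ to 3′ from the GENCODE M21 transcripts, with capitals at the bases that differ between the 2 genes.
Dynll1: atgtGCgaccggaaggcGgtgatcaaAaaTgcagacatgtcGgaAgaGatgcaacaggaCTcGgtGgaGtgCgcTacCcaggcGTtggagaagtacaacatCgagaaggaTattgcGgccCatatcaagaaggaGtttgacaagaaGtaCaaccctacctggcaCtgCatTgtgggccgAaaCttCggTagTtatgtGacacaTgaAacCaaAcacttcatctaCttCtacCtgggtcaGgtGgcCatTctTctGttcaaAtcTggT
Dynll2: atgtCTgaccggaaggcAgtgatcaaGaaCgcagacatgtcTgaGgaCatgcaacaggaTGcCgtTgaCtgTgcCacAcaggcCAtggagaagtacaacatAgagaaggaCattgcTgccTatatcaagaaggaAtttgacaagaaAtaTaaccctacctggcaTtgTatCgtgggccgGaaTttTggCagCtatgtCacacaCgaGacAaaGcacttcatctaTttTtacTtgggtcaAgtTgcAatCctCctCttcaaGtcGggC
The coding sequences differed at 50 bases and were identical at 81.3%. Of the differing bases, 45 were at the last position of a codon. The longest stretch without a difference was 16 bases, and 0.0% of the 75-base stretches of the *Dynll2* transcript occurred in any other gene. For *Dynll1* the share was 1.52%, none of it in *Dynll2*.

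FPKM, the unit of the values, is scaled by both gene length and library size, so levels can be set beside each other between genes of a library. How many reads stand behind each value is not known. The groups were compared with limma on log2(FPKM + 1) over all genes, and a gene was called when its unadjusted p was under 0.05 and its fold change at least 1.2. For genes at low FPKM, differences on this scale are smaller than the change in FPKM itself. Over all 11234 genes, 73 (0.650%) were called by limma, 74 had an unadjusted p under 0.05 and 0 passed Benjamini-Hochberg adjustment. The median of all differences was 0.057 on the log2 scale, and the 5th and 95th percentiles were -0.29 and 0.42. Control replicate 1 stood apart from the other 5 libraries, with a Pearson's r of log2 values across genes of 0.886 to 0.939, and C3G replicate 1 departed from its group in the same direction with transcript GC content (Spearman's rho across genes 0.748 and 0.631, where genes are not independent replicates). Of 8 osteoblast lineage markers, 7 were listed, with a summed level of 2415 to 7533 FPKM in the control libraries and 2450 to 3380 FPKM in the C3G libraries. *Col1a1* was highest, at 4432 FPKM in control replicate 1 and 923 to 1478 FPKM in the other libraries, *Sp7* (0.237 to 0.857 FPKM) and *Pth1r* (0.347 to 0.737 FPKM) were low, and *Ibsp* was not analysed here. Of the 5 macrophage markers looked for, *Cd14* and *Cd68* were listed, with a summed level of 1.73 to 2.74 FPKM in the control libraries and 2.90 to 3.65 FPKM in the C3G libraries. Taken singly, both genes overlapped between the groups and neither was called, and *Cd68* was as low as 0.144 FPKM. Of 4 epithelial markers only *Cdh1* was listed, at 0.524 to 0.929 FPKM without C3G and 0.895 to 1.37 FPKM with it. Its groups overlapped and it was not called. The part of macrophage or epithelial markers in the results below was not tested. Of 3 muscle markers only *Des* was listed, at 0.715 to 1.63 FPKM, and none of 8 endothelial and adipocyte markers was.

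**Figure D1:**
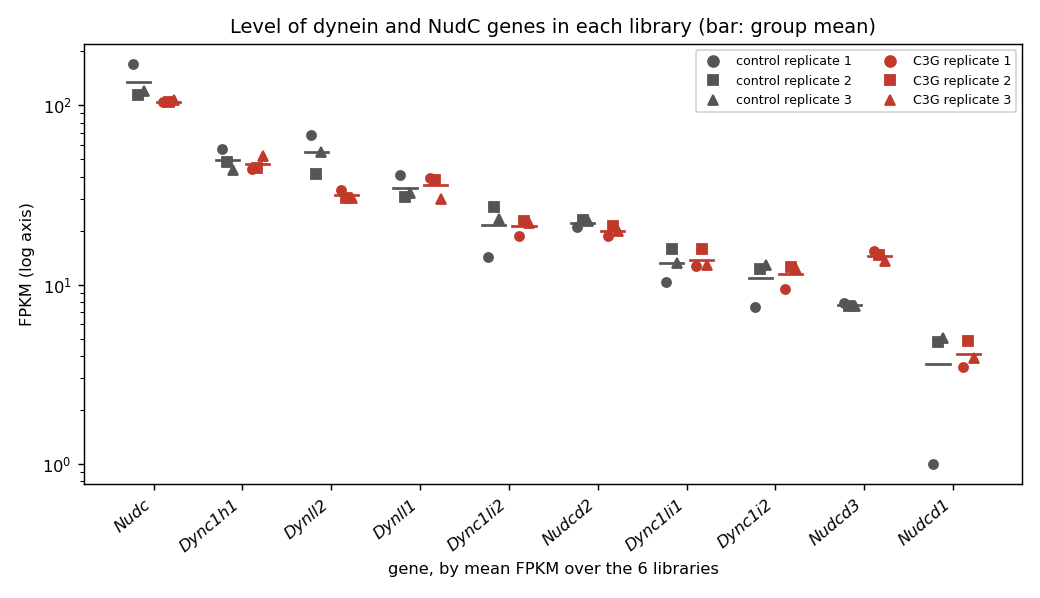
FPKM (log axis) of each of the 10 genes in the 3 control libraries (gray) and the 3 C3G libraries (red), ordered by mean FPKM over the 6 libraries, with a bar at each group mean. *Nudcd3* sat at 7.59 to 7.85 FPKM in the control libraries and at 13.4 to 15.4 FPKM in the C3G libraries, whereas *Dynll2* sat at 41.5 to 68.1 and at 30.4 to 33.8 FPKM.

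Among the NudC chaperones, *Nudcd3* was higher with C3G, and the other 3 genes were not called. *Nudcd3* encodes a NudC-like protein that is known to bind the dynein intermediate chain and to protect it from aggregation and breakdown. It lies on the minus strand of chromosome 11 of GRCm38 (6105691 to 6200415). Control libraries 1 to 3 held 7.85, 7.63 and 7.59 FPKM, whereas C3G libraries 1 to 3 held 15.4, 14.5 and 13.4 FPKM. Every C3G library was above every control library, and the 3 control libraries lay close together, including the one that stood apart over all genes. The control mean of 7.69 ± 0.138 FPKM (SD, n = 3) stood beside 14.5 ± 0.983 FPKM (SD, n = 3) after C3G, which was 1.88 times as high. On the log2 scale the difference was 0.83 with a standard error of 0.143. It was 0.89, 0.85 and 0.75 within replicate numbers 1, 2 and 3. Of the transcript bases of *Nudcd3*, 9.86% overlap exons of *A730071L15Rik* on the opposite strand, and how the authors used strand in counting is not stated.

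*Nudc* encodes the founding member of the family, a chaperone that stabilizes Lis1 and is needed for nuclear movement and cell division. It was the most abundant of the 10 genes, with 169.5, 114.5 and 119.2 FPKM in control libraries 1 to 3, against 104.0, 103.9 and 106.2 FPKM in C3G libraries 1 to 3. All C3G libraries were below all control libraries, but control replicate 1 was far above the others, and *Nudc* was not called. The control mean was 134.4 ± 30.5 FPKM (SD, n = 3) and the C3G mean 104.7 ± 1.31 FPKM (SD, n = 3), a log2 difference of -0.33 with a standard error of 0.196. It was -0.16 without control replicate 1 and -0.15 with replicates 2 and 3 only. Of the 75-base stretches of the *Nudc* transcript, 29.5% also occur in the pseudogene *Nudc-ps1*, and how such reads were assigned is not stated.

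*Nudcd2* encodes a small family member that also stabilizes Lis1 with Hsp90. Its level was 20.99, 22.9 and 22.6 FPKM in the control libraries and 18.7, 21.2 and 19.9 FPKM in the C3G libraries, in replicate order. The groups overlapped slightly, between C3G replicate 2 and control replicate 1, and the log2 difference was -0.15 with a standard error of 0.142, and -0.24 after the GC correction. *Nudcd1* encodes a member best known for binding the RNA helicase Dhx15. It was the lowest of the 10 genes, with 0.997, 4.80 and 5.07 FPKM in control libraries 1 to 3, against 3.49, 4.87 and 3.92 FPKM in C3G libraries 1 to 3. The 2 groups overlapped, and the log2 difference of 0.29 (standard error 0.433) rested on control replicate 1, since without that library it was -0.23. Its exons overlap those of *Eny2* on the opposite strand.

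As a share of the summed FPKM of the 4 NudC genes, *Nudcd3* took 3.94%, 5.09% and 4.92% in control libraries 1 to 3, against 10.9%, 10.1% and 9.37% in C3G libraries 1 to 3. The share of *Nudc* was 85.03%, 76.4% and 77.2% in the control libraries and 73.5%, 71.9% and 74.0% in the C3G libraries. The ratio of *Nudc* to *Nudcd3* was 17.4 ± 3.62 (SD, n = 3) in control cells, against 7.26 ± 0.585 (SD, n = 3) in C3G cells. The family stayed dominated by *Nudc* in all 6 libraries, with *Nudcd2* second.

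**Figure D2:**
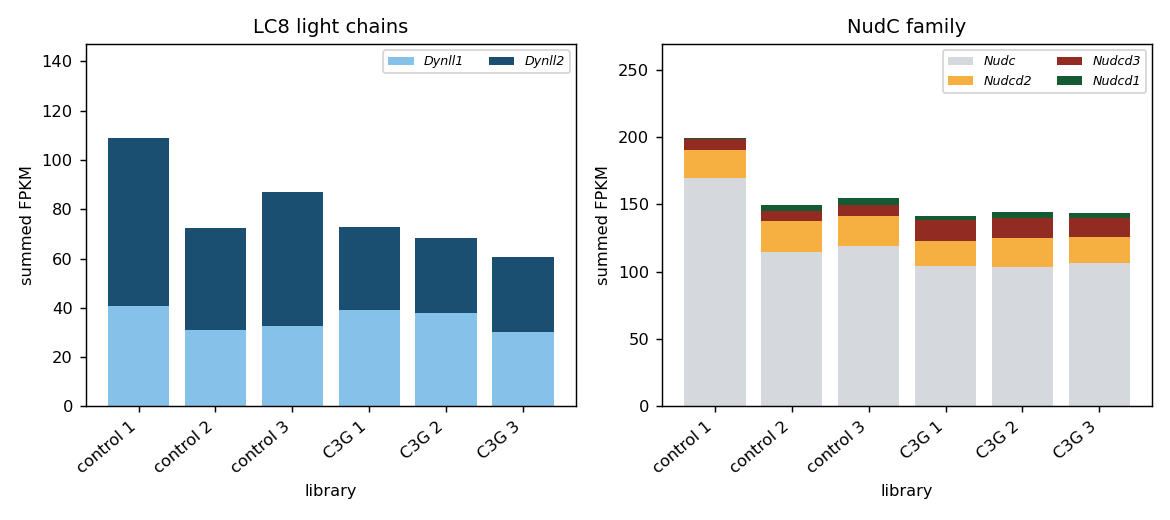
Summed FPKM of the LC8 light chain genes (left) and of the NudC family (right) in each of the 6 libraries, stacked by gene, with both axes starting at 0. The *Dynll2* part falls from 57.3 to 62.6% of the LC8 sum in the control libraries to 44.4 to 50.2% in the C3G libraries, and the *Nudcd3* part of the NudC sum is larger in each C3G library than in any control library.

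Among the dynein subunits, the light chain gene *Dynll2* was lower with C3G, and the chains that make up the motor, its intermediate links and the other LC8 gene differed by less than their standard errors. LC8 light chains join as dimers to the intermediate chain and also to many proteins outside the motor. *Dynll2* is at chromosome 11 of GRCm38 (87979525 to 87987533, minus strand), as is *Nudcd3*, though far from it. Control libraries 1 to 3 held 68.1, 41.5 and 54.5 FPKM, whereas C3G libraries 1 to 3 held 33.8, 30.4 and 30.4 FPKM. Every C3G library was below every control library, and the control libraries were spread more widely than the C3G libraries. The control mean of 54.7 ± 13.3 FPKM (SD, n = 3) stood beside 31.5 ± 1.97 FPKM (SD, n = 3) after C3G, which was 0.577 times as high. The log2 difference was -0.75 with a standard error of 0.208. Within replicate numbers 1, 2 and 3 it was -0.99, -0.43 and -0.82.

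*Dynll1*, the other LC8 gene, had 40.8, 30.9 and 32.5 FPKM in control libraries 1 to 3, against 39.1, 38.1 and 30.1 FPKM in C3G libraries 1 to 3. The groups overlapped over most of their range, and the log2 difference was 0.042 with a standard error of 0.184. The order of the paralogs differed between the groups. The ratio of *Dynll2* to *Dynll1* was 1.67, 1.34 and 1.68 in the control libraries and 0.866, 0.799 and 1.01 in the C3G libraries. *Dynll2* was the higher gene in each control library, while in the C3G libraries the genes were near each other, with *Dynll2* the lower in replicates 1 and 2. The sum of both genes was 89.4 ± 18.4 FPKM (SD, n = 3) in control cells, against 67.3 ± 6.26 FPKM (SD, n = 3) in C3G cells, and here the groups overlapped, since C3G replicate 1 (72.9 FPKM) was above control replicate 2 (72.3 FPKM).

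*Dync1h1* encodes the heavy chain, the motor subunit itself. Its level was 57.2, 48.1 and 43.3 FPKM in the control libraries and 44.0, 44.9 and 51.9 FPKM in the C3G libraries, in replicate order, with the highest and the lowest value both in control cells. The log2 difference was -0.071 with a standard error of 0.170. *Dync1i2* encodes the intermediate chain of most cells outside the nervous system and was at 7.46, 12.3 and 12.8 FPKM without C3G and 9.41, 12.6 and 12.3 FPKM with it (log2 difference 0.091, standard error 0.241). In both groups replicate 1 was the lowest. The light intermediate chains, which bind cargo adaptors, are encoded by *Dync1li1* and *Dync1li2*. *Dync1li1* was at 10.4, 15.8 and 13.2 FPKM in the control libraries and 12.7, 15.8 and 12.9 FPKM in the C3G libraries (log2 difference 0.076, standard error 0.197). *Dync1li2* was at 14.2, 27.1 and 23.2 FPKM in the control libraries and 18.7, 22.7 and 21.9 FPKM in the C3G libraries (log2 difference 0.015, standard error 0.252). The groups overlapped in both genes, and *Dync1li2* exceeded *Dync1li1* in each library, with a ratio of 1.61 ± 0.214 (SD, n = 3) in control cells, against 1.54 ± 0.145 (SD, n = 3) in C3G cells.

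**Figure D3:**
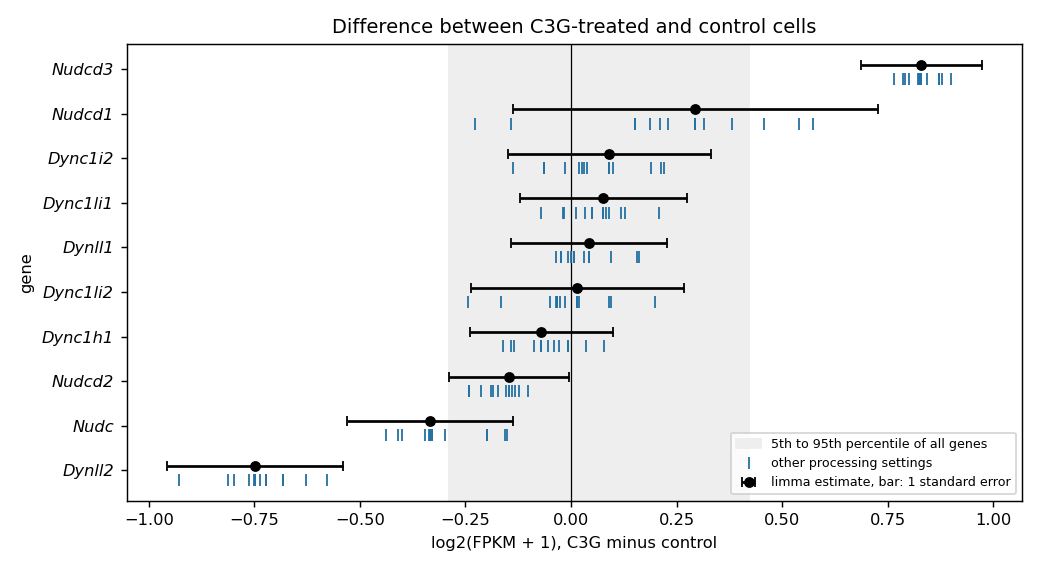
Difference in log2(FPKM + 1) between C3G and control cells for the 10 genes (black points, bars of 1 standard error from limma), with the same difference under each of 16 other ways of processing (blue ticks) and the 5th to 95th percentile of all genes (-0.29 to 0.42, gray band). *Nudcd3* lies between 0.76 and 0.90 and *Dynll2* between -0.93 and -0.58 under all of them, while 6 of the other 8 genes have ticks on both sides of 0.

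In total 2 of the 10 genes were called, beside 0.650% of all genes, and the same 2 had an unadjusted p under 0.05, beside 0.659%. *Nudcd3* was the 1 called as higher, beside 0.401% of all genes, and *Dynll2* the 1 called as lower, beside 0.249%. In 3 of the 10 every value of 1 group lay above every value of the other, those and *Nudc*, beside 4.02% of all genes. In 1 of them C3G cells were higher, beside 2.55%, and in 2 lower, beside 1.48%. Since the genes were chosen by this difference, nothing is read from these counts. Over 16 alternatives, which reuse the same libraries, the difference ran from 0.76 to 0.90 for *Nudcd3* and from -0.93 to -0.58 for *Dynll2*. The sign of the difference changed in 8 of the 16 alternatives for *Dync1li2*, in 4 for *Dynll1* and for *Dync1i2*, in 3 for *Dync1li1* and in 2 for *Nudcd1* and for *Dync1h1*. *Nudc* and *Nudcd2* kept theirs in all 16.

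**Figure D4:**
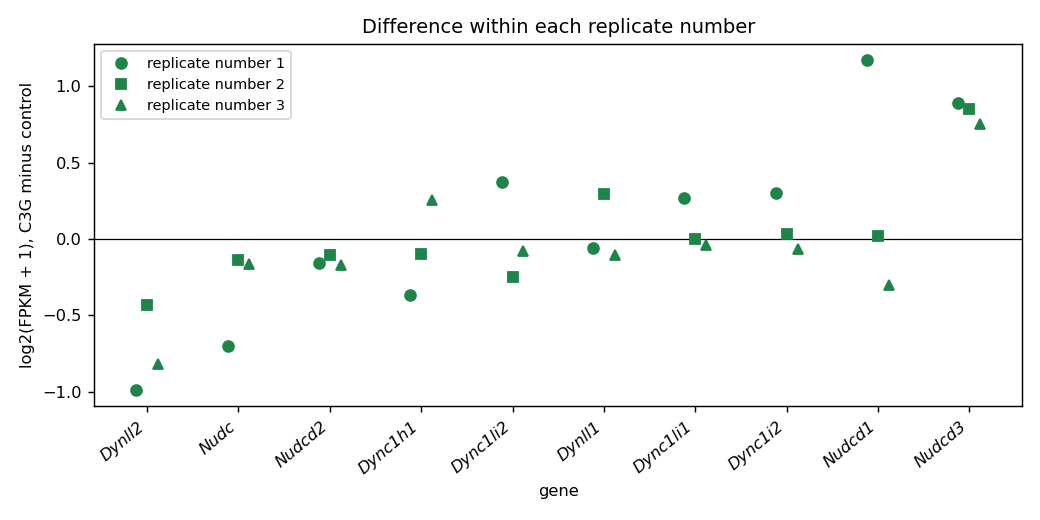
Difference in log2(FPKM + 1), C3G minus control, within each of the 3 replicate numbers for the 10 genes. The 3 points of *Nudcd3* lie at 0.75 to 0.89 and those of *Dynll2* at -0.99 to -0.43, whereas *Nudcd1* ranges from -0.30 to 1.17.

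The departure of control replicate 1 differed between the genes. In control replicate 1, the level of *Nudcd1*, with a transcript GC content of 41.4%, was 0.202 times the mean of control replicates 2 and 3. The ratio was 0.593 for *Dync1i2* (40.9% GC), 0.565 for *Dync1li2* (47.0%) and 0.717 for *Dync1li1* (48.4%). The ratio was above 1 for *Nudc* (1.45, 57.2% GC), *Dynll2* (1.42, 53.7%) and *Dync1h1* (1.25, 53.7%). It did not follow GC content in every gene, since *Dynll1*, at 47.9% GC, had a ratio of 1.29 and *Nudcd2*, at 43.8% GC, one of 0.922. *Nudcd3*, at 52.4% GC and beside a median of 49.6% over all genes, had a ratio of 1.03. With each library corrected for transcript GC content, the difference was 0.87 for *Nudcd3* and -0.68 for *Dynll2*. With replicates 2 and 3 only, it was 0.80 and -0.63.

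Levels were also compared between genes within each library. The order pools both groups, so the places of *Nudcd3* and *Dynll2* in it depend on their difference with C3G. Ordered by mean FPKM over the 6 libraries, the genes were *Nudc* (119.6), *Dync1h1* (48.2), *Dynll2* (43.1), *Dynll1* (35.2), *Dync1li2* (21.3), *Nudcd2* (21.1), *Dync1li1* (13.5), *Dync1i2* (11.1), *Nudcd3* (11.1) and *Nudcd1* (3.86). In 5 of the 9 neighbouring pairs the higher gene was higher in 6 of 6 libraries. These were *Nudc* over *Dync1h1*, *Dynll1* over *Dync1li2*, *Nudcd2* over *Dync1li1*, *Dync1li1* over *Dync1i2* and *Nudcd3* over *Nudcd1*. For pairs with *Nudcd3* or *Dynll2* no p-value is given, since the values that chose these genes enter them. Each of the first 4 pairs had p = 0.0312 by a two-sided exact sign-flip permutation test, the smallest that 6 libraries can give. Their adjusted p was 0.0563. It was taken over all 9 pairs, those with *Nudcd3* or *Dynll2* included, so it also depends on the values that chose these genes. The same libraries set the order, and the test takes them as independent. With the mean of each replicate number as the unit, a choice made after seeing the data, the smallest exact p is 0.25, which these 4 pairs had. In the control libraries alone, 6 of the 9 pairs kept the pooled order in 3 of 3. *Nudc* was above *Dync1h1* by 1.30 ± 0.191 (SD, n = 6) on the log2 scale of FPKM. *Dync1li2* and *Nudcd2* did not differ beyond their spread (exact p = 1), with *Dync1li2* higher in 5 of 6 libraries. *Dync1h1* was higher than *Dynll2* in 1 of 3 control libraries and in 3 of 3 C3G libraries, so the order of their control means (49.5 and 54.7 FPKM) was the reverse of the pooled one. *Dync1i2* was higher than *Nudcd3* in 2 of 3 control libraries and in none of the C3G libraries.

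The genes most like *Nudcd3* over the 6 libraries, by Pearson's r of log2(FPKM + 1) among 10462 other genes with a mean FPKM of at least 1, were *Nat8f5* (r = 0.997), *Trim62* (0.976) and *Pigo* (0.971). Those most like *Dynll2* were *Ulk3* (0.983), *Nkiras2* (0.968) and *Smad7* (0.968). All values come from the same 6 libraries that chose *Nudcd3* and *Dynll2*, and r is given as a description without a test.

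The wider dynein and NudC pathway was examined through 9 lists holding 98 other genes, of which 88 were analysed. None of the 88 was called by limma, beside 0.650% of all genes. Values of both groups were fully separate for 2 of the 88, beside 4.02% of all genes. The count of the 88 with an unadjusted p under 0.05 was 0 with limma, beside 0.659% of all genes. With an ordinary linear model it was also 0, beside 102 of 11234 genes, and 0 passed the adjustment. The smallest adjusted p among the 88 was 0.992 (limma). It was also 0.992 for *Nudcd3* and for *Dynll2*, and the smallest over all genes was 0.497. The median difference of the 88 was 0.0032 on the log2 scale, and the difference was above 0 in 45 of them.

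The light chains of the Tctex and roadblock types bind the intermediate chain beside LC8. All 6 analysed genes of this list had a difference above 0, with a median of 0.38 beside 0.057 over all genes, but none passed. *Dynlrb1*, the roadblock chain and the most abundant of the list, was at 46.0, 67.2 and 85.3 FPKM in the control libraries and 96.9, 96.9 and 67.4 FPKM in the C3G libraries, so the groups overlapped (log2 difference 0.41, standard error 0.273). The difference was 0.18 without control replicate 1 and 0.093 with replicates 2 and 3 only. The 1 gene of the 88 with all C3G libraries above all control libraries, beside 2.55% of all genes, was *Dynlt1a*, at 14.2 to 20.2 FPKM without C3G and 20.7 to 24.5 FPKM with it (log2 difference 0.34). With replicates 2 and 3 only, the median of the list was 0.088 (-0.011 over all genes), and without control replicate 1 it was 0.18 (-0.012 over all genes), with 5 of the 6 above 0. *Dynlt1a*, *Dynlt1b*, *Dynlt1c* and *Dynlt1f* are near-identical copies, and their separate levels are uncertain.

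Dynactin is the complex that joins dynein to cargo and makes it processive. All 12 of its genes were analysed, 7 had a difference above 0 and the median was 0.091. The median was 0.016 without control replicate 1, 0.020 without C3G replicate 1 and -0.010 with replicates 2 and 3 only. *Dctn1*, which encodes its largest subunit, had 40.6 ± 18.2 FPKM (SD, n = 3) in control cells, against 32.6 ± 5.24 FPKM (SD, n = 3) in C3G cells (log2 difference -0.24, standard error 0.314). *Actr1a*, the actin-related protein of the dynactin filament, had 65.03 ± 11.1 FPKM (SD, n = 3) in control cells, against 74.01 ± 7.83 FPKM (SD, n = 3) in C3G cells (log2 difference 0.19, standard error 0.189). Of the regulators, *Pafah1b1*, which encodes Lis1, the client of NudC, had 21.2 ± 6.84 FPKM (SD, n = 3) in control cells, against 20.6 ± 2.83 FPKM (SD, n = 3) in C3G cells (log2 difference 0.0025, standard error 0.272). *Nde1* and *Ndel1*, whose proteins link Lis1 to dynein, differed by -0.12 and -0.068 (standard errors 0.173 and 0.152), and by -0.25 and -0.0039 without control replicate 2.

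Cargo adaptors hold dynein, dynactin and a cargo together. The 14 analysed genes had a median of -0.038, with 5 above 0. *Bicd2*, the adaptor of Golgi vesicles and nuclei, had a log2 difference of 0.20 (standard error 0.251), and *Rab11fip3*, the most abundant of the list and an adaptor of recycling endosomes, one of -0.14 (standard error 0.236). In dynein-2, the separate motor of cilia, the median of 5 genes was 0.17, but -0.055 without control replicate 1, -0.053 with replicates 2 and 3 only and 0.013 without C3G replicate 3. *Dync2li1*, its light intermediate chain, had a difference of 0.25 (standard error 0.187), which was 0.029 with replicates 2 and 3 only. For Hsp90 and its cochaperones, with which NudC proteins act, the median of 13 genes was -0.022 and 6 were above 0. *Hsp90ab1*, the constitutive form and the most abundant of the list, had 692.7 ± 114.4 FPKM (SD, n = 3) in control cells, against 613.9 ± 64.04 FPKM (SD, n = 3) in C3G cells (log2 difference -0.17, standard error 0.209, and -0.040 without control replicate 1). *Hsp90aa1*, the inducible form, ranged from 84.0 to 221.7 FPKM in the control libraries alone (log2 difference 0.20, standard error 0.417).

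Partners of LC8 outside the motor were not called either, with a median of -0.016 over 8 genes. *Atmin*, whose product is the transcription factor that drives *Dynll1*, was at 4.14, 6.74 and 6.58 FPKM without C3G and 7.04, 6.63 and 6.64 FPKM with it (log2 difference 0.21, standard error 0.203), and the groups overlapped. *Nek9*, a mitotic kinase that binds LC8, had a difference of -0.0085 (standard error 0.138). Kinesins move along microtubules in the direction opposite to dynein. The 17 analysed transport kinesins had a median of -0.043, and *Kif1c*, the most abundant, differed by -0.16 (standard error 0.181), and by -0.011 without control replicate 1. The 1 gene of the 88 with all C3G libraries below all control libraries, beside 1.48% of all genes, was *Klc1*, a kinesin light chain, at 31.7 to 44.8 FPKM without C3G and 28.6 to 31.6 FPKM with it (log2 difference -0.25, standard error 0.181). Tubulins, the track itself, had a median of 0.034 over 10 genes, and *Tuba1b*, the most abundant, differed by -0.020 (standard error 0.195).

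**Figure D5:**
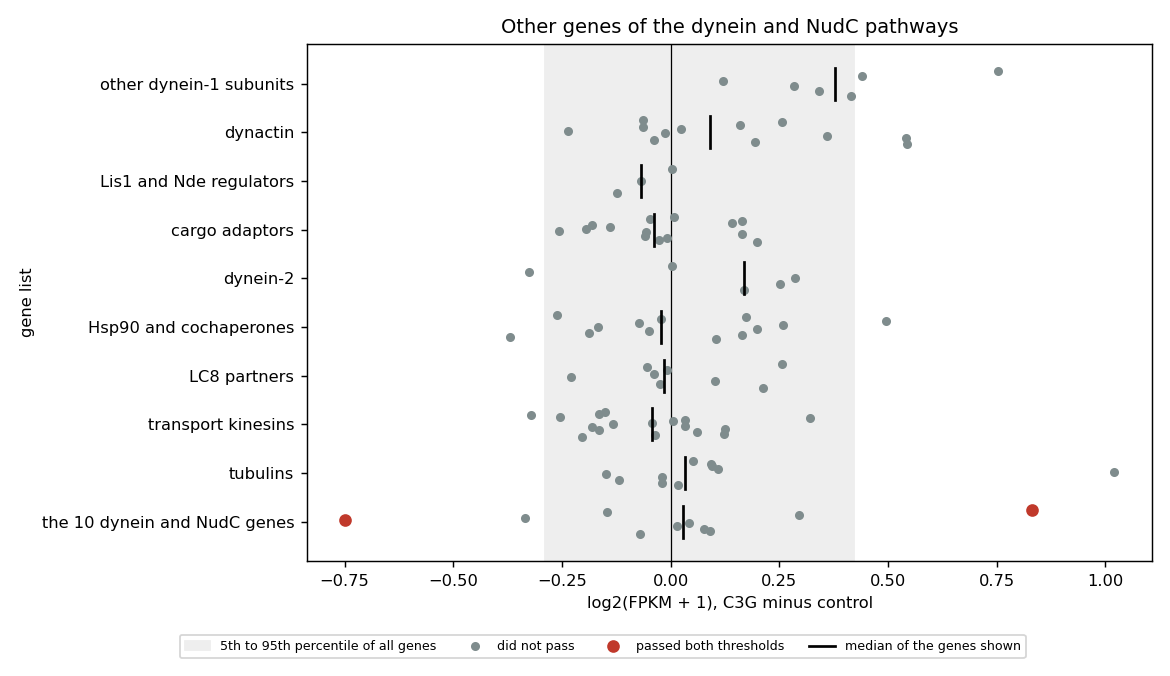
Difference in log2(FPKM + 1), C3G minus control, of each analysed gene in 9 lists of other dynein and NudC pathway genes and of the 10 genes themselves (lowest line), with the median of each list as a black bar and the 5th to 95th percentile of all genes in gray. The 2 red points, *Dynll2* and *Nudcd3*, are the genes that passed both thresholds, and none of the 88 genes of the other lists did.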

How the data were processed

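MC3T3-E1 RNA was sequenced from stranded libraries. The deposited values are FPKM, 1 for each gene in each library, which the authors made with Ballgown. The submitters' processing notes list cutadapt, HISAT2 2.1.0, StringTie, STAR 2.5.2b and the human build hg19, with no role given, although the identifiers are mouse Ensembl genes. Of 11234 identifiers, 11211 matched a symbol. Positions, sequences and transcript GC content came from GENCODE M21 (GRCm38). All genes have a group mean of at least 0.5 FPKM in 1 group.

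Values were fitted as log2(FPKM + 1) with limma 3.58.1 (trend, 6 libraries, group only) in R 4.3.3. Thresholds were those of the study, and p-values were adjusted over all genes (Benjamini-Hochberg). The study's own list of changed genes at these thresholds holds neither *Nudcd3* nor *Dynll2*. The fit was tested on simulated data, and Python 3.11.15 did the rest. No step worth 1 read was found among low FPKM values, so depth is unknown.

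The 10 genes and the lists were chosen with earlier results of these data known. Named genes are the 10, list genes past both thresholds, 8 fixed genes, the most abundant gene of each list and the 3 genes most like *Nudcd3* and *Dynll2*. *Dynlt1a* and *Klc1* were named after their values were seen. Departures from the group means correlated across genes at 0.653, 0.580 and 0.440 between libraries with the same replicate number in the labels, and at -0.640 to 0.307 otherwise. Because departures were taken within each group, these correlations depend on each other and do not show that numbers 2 and 3 are pairs. The labels do not say whether the numbers pair the libraries. The main fit therefore ignored them, and a replicate block was an alternative. The others were a pseudocount of 0.1, a mean FPKM of at least 1, no trend, no moderation, quantile normalization, median centring, a GC correction (spline, 5 degrees of freedom) with or without the block, replicates 2 and 3 only, and each library left out. For the order of levels, the replicate number as the unit was added after seeing the data.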

Additional observations from a re-analysis of the deposited data

How the results depend on the processing

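The number of genes called was 0 in the 9 lists under all 16 alternatives, and 2 among the 10, which were chosen by this difference. Over all genes it was 73, against 48 without moderation, 112 with the GC correction, 169 with the replicate block, 205 with both and 191 with replicates 2 and 3 only. Leaving out 1 library gave 40 to 144: 144 and 127 without control replicates 1 and 2, and 45, 40 and 43 without C3G replicates 1, 2 and 3. The cause was not tested. The block changed no call among the 10 or the lists. Quantile normalization gave 30 higher and 30 lower genes in place of 45 and 28, and replicates 2 and 3 only gave 88 and 103. The median of 7 of the 9 lists changed sign in at least 1 alternative. Some differences of list genes, none of them called, changed sign. *Pafah1b1* was at -0.043 after quantile normalization, -0.063 after centring on the median, -0.16 after either GC correction and -0.20 with replicates 2 and 3 only. Either GC correction put *Rab11fip3* at 0.030, *Nek9* at 0.015 and *Tuba1b* at 0.073. Replicates 2 and 3 only put *Dctn1* at 0.016, *Atmin* at -0.0040, *Actr1a* at -0.031, *Rab11fip3* at 0.019 and *Tuba1b* at 0.024. With 1 library left out, the range was -0.29 to 0.15 for *Pafah1b1*, -0.48 to 0.098 for *Dctn1*, -0.068 to 0.33 for *Bicd2*, -0.21 to 0.49 for *Hsp90aa1*, -0.29 to 0.096 for *Rab11fip3*, -0.045 to 0.023 for *Nek9* and -0.084 to 0.077 for *Tuba1b*. Without a change of sign, it was -0.25 to -0.046 for *Nde1*, -0.13 to -0.0039 for *Ndel1*, -0.27 to -0.040 for *Hsp90ab1*, -0.25 to -0.011 for *Kif1c*, 0.18 to 0.62 for *Dynlrb1*, 0.021 to 0.32 for *Atmin* and 0.045 to 0.27 for *Actr1a*. Depth is unknown, so low genes such as *Nudcd1* have no stated counting error.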
